A study of Drosophila melanogaster with 36 samples.

Results

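Eukaryotic translation initiation factors (eIFs) are the proteins that bring the ribosome, the initiator tRNA and an mRNA together before protein synthesis starts. Their genes were taken here as all rows of the deposited count tables whose symbol begins with eIF and a digit, which gave 44 of 17610 genes. They were split into 34 broadly expressed genes and a set of 10 called the scarce genes here. The scarce set held 8 paralogs listed as testis genes (eIF3d2, eIF3f2, eIF3g2, eIF4E3, eIF4E5, eIF4E6, eIF4E7 and eIF4G2) together with eIF4E4 and eIF4H2, which were placed there after their values were seen. eIF4G2 was put in that set by its listing and not by its level, which was 4.47 to 97.5 CPM. In the Ensembl annotation the 44 genes lay on arms 2L (3 genes), 2R (9), 3L (11), 3R (13) and X (7) and on chromosome 4, which carries eIF4G1. All 44 passed the filter on low counts in every test below.

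In cap-dependent initiation, the eIF4F complex holds the mRNA cap through eIF4E, a scaffold (eIF4G) and a helicase (eIF4A). The small ribosomal subunit carries eIF1, eIF1A, the many-subunit eIF3 complex and eIF2, which delivers the initiator tRNA and is recharged with GTP by eIF2B, and it scans to a start codon, where eIF5 and eIF5B complete the joining of the large subunit. Cap binding is held back by 4E-BP, the product of Thor in flies, and eIF2B is held back when eIF2alpha is phosphorylated, and both controls respond to nutrients and stress.

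RNA came from the fat body, the larval organ that combines roles of liver and adipose tissue, of third-instar Drosophila melanogaster. Larvae of both genotypes were entrained to 12 h of light and 12 h of dark. The 2 genotypes were sampled in constant darkness at 9 circadian times (CT), every 4 h from CT0 to CT32, with 2 libraries at each time, so that 18 libraries were w1118 and 18 were per0. w1118 is a laboratory strain with a white mutation, and per0 lacks a functional period gene, a core part of the circadian clock. Each library was a pool of the fat bodies of 5 larvae of both sexes, and the columns of the tables tell the duplicates apart by the letters A and B. Values are CPM, read counts scaled to a common library size with edgeR's normalization factors. Levels of different genes are compared as CPM per kb of exon, with CPM beside it where stated. Exon length is the union of all annotated exons of a gene, whether or not they were used in these samples.

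Total counts ran from 16513757 to 28423768 per library, and 3 counts, the detection floor used, corresponded to 0.0935 to 0.220 CPM. All 13 fat body markers had a median above 1 CPM in both genotypes, and their sum ran from 23500 to 522000 CPM, with medians of 172000 on the first and 397000 CPM on the second day in w1118. The 30 testis germ line markers summed to 7.53 to 1340 CPM in w1118 and 3.44 to 493 CPM in per0, with medians of 234 and 25.7 CPM. The per0 CT28 library of letter B stood apart: nAChRalpha7, a nicotinic receptor subunit gene, measured 14.8 CPM there, at most 1 CPM in the other 17 per0 libraries and 13.6 to 83.6 CPM in w1118. Hs3st-A measured 18.3 CPM there, at most 0.471 CPM in the other per0 libraries and 0.948 to 64.5 CPM in w1118. At 4.33 CPM, mthl8 lay above the other per0 libraries (at most 0.377 CPM) and below w1118 (6.96 to 14.6 CPM). This per0 library is called mixed here as a label only, and the cause of its values was not tested. nAChRalpha7 was taken from earlier results of these data. Of the 2 w1118 CT0 samples 1 carries a genotype tag that names per0, against its title, and was kept as w1118, and counts of members called that change without both CT0 libraries or without per0 CT28 B are given both ways. Duplicates are not said to come from separate cultures, so p-values measure the spread between pools. In bulk RNA, fewer cells of a type and less RNA per cell cannot be told apart.

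Per exon length, the most abundant transcripts were eIF2A, which can bring initiator tRNA to the ribosome independently of eIF2, and eIF4A, at 459 and 424 CPM per kb over the 36 libraries. eIF1, which guards the choice of start codon, followed at 299.5 CPM per kb. eIF2A measured 728 to 1600 CPM in w1118 and 1020 to 2520 CPM in per0, and eIF4A measured 520 to 1210 and 850 to 1770 CPM. These genes therefore outranked the cap-binding protein eIF4E1, at 86.8 CPM per kb, and the scaffold eIF4G1, at 58.5 CPM per kb. The cofactors that stimulate the helicase were lower still, eIF4H1 at 13.5 and eIF4B at 8.72 CPM per kb. The lowest of the eIF4 group per kb was eIF4EHP, a cap-binding relative that represses chosen mRNAs, at 3.92 CPM per kb, 108 times below eIF4A. This rank depends on its exon union of 6418 bases, against 1922 for eIF4B. In mean CPM eIF4EHP lay above eIF4B, at 23.4 against 14.35 in w1118 and 26.9 against 19.2 in per0.

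The 13 subunits of eIF3, the scaffold that joins the mRNA to the small subunit, lay close together. They ran from 46.7 CPM per kb for eIF3a to 183 for eIF3i, a 3.92-fold span, against 3.35-fold within eIF2 and 2.09-fold within eIF2B. The core subunits eIF3b and eIF3c lay at 94.7 and 77.1 CPM per kb. The 3 subunits of eIF2 lay at 59.9 (eIF2gamma, which binds GTP and the tRNA), 70.2 (eIF2alpha, the phosphorylated subunit) and 200.5 CPM per kb (eIF2beta). The 5 subunits of eIF2B spanned 18.1 (eIF2Bdelta) to 37.9 CPM per kb (eIF2Bbeta), below each eIF2 subunit. Among the factors of the scanning and joining steps, eIF1A measured 84.6, eIF6, which keeps the large subunit from joining too early, 27.1, and eIF5B, the GTPase of subunit joining, 22.6 CPM per kb. eIF2D, a factor of initiator tRNA delivery and ribosome recycling, measured 17.7 CPM per kb. eIF5, which triggers GTP hydrolysis on eIF2, was listed at 0.516 to 2.39 CPM. In the Ensembl annotation 80.8% of its exon bases lie in CG46312 on the same strand, a gene not analysed here, so the reads of the 2 genes cannot be told apart and the eIF5 value is uncertain.

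**Figure D1:**
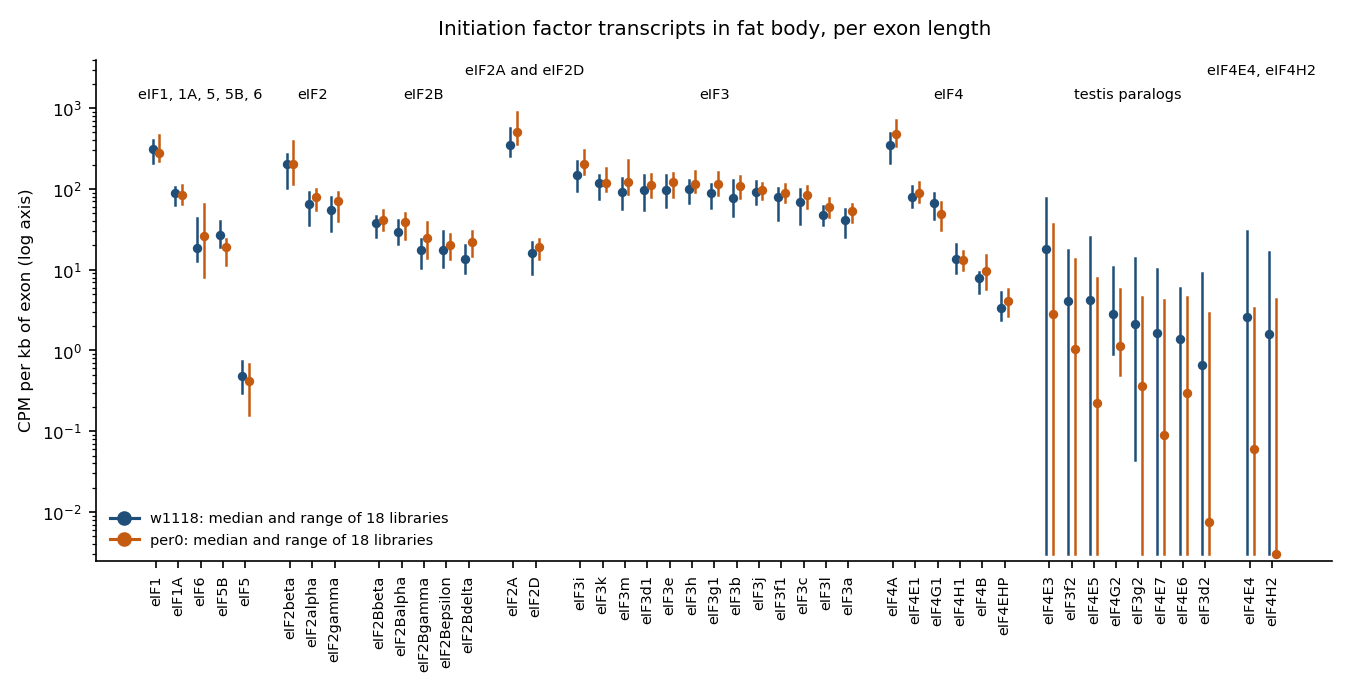
CPM per kb of exon (log axis) for the 44 genes, grouped by role, with the median (point) and range (line) of 18 libraries in each genotype, and values of 0 drawn at the lower edge. eIF2A, eIF4A and eIF1 lie highest, and the eIF3, eIF2 and eIF2B subunits each form a narrow band. The scarce genes run from 0 upward, except eIF4G2, and eIF3g2 in w1118, whose lowest values lie above 0.

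Most broadly expressed members were higher in per0 than in w1118. Over matched times, 28 of 44 members were called (adjusted p under 0.05 in edgeR's quasi-likelihood test), 23 higher and 5 lower in per0, against 42.4% of the 12020 genes tested (19.4% higher and 23% lower). All 3 eIF2 subunits, 11 of 13 eIF3 subunits, 3 of 5 eIF2B subunits, eIF2A, eIF2D and 4 of 6 eIF4 members were higher. Not all of these calls were firm. Those of eIF3c, eIF2beta, eIF3d1 and eIF4EHP were lost in 23, 16, 10 and 3 of 36 fits that left out 1 library. They were also lost in 6, 5, 6 and 5 of 7 other alternative runs. The median over the 34 broad members was 0.27 log2, and that over all genes tested was -0.16. Of the broad members, eIF5B and eIF4G1 were lower in per0, as were 3 of the scarce genes, described further on.

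eIF2Bdelta, a regulatory subunit of the exchange factor, showed the largest rise among broad members. eIF2Bdelta measured 32.4 and 33.9 (CT0), 30.4 and 30.8 (CT4), 38 and 28.2 (CT8), 22.2 and 29.4 (CT12), 43.6 and 37.2 (CT16), 19.8 and 19.5 (CT20), 29.2 and 21.4 (CT24), 37 and 34.5 (CT28) and 26.9 and 27.3 (CT32) CPM in w1118. In per0 eIF2Bdelta measured 40.4 and 46 (CT0), 44.6 and 52.1 (CT4), 31.7 and 32.9 (CT8), 56.9 and 65 (CT12), 56.4 and 58.2 (CT16), 45.1 and 47.1 (CT20), 51.1 and 61.1 (CT24), 57.3 and 41.1 (CT28) and 47.9 and 37.8 (CT32) CPM. Both per0 libraries lay above both w1118 libraries at 8 of 9 times, with CT8 the exception. The means were 48.5 ± 9.55 and 30.1 ± 6.69 CPM (SD, n = 18 each), a difference of 0.65 ± 0.09 log2 (SE, adjusted p = 1.72e-06 by edgeR). eIF2Bgamma, which belongs to the catalytic part of eIF2B, was higher too. eIF2Bgamma measured 34.4 and 37.3 (CT0), 32.8 and 31.4 (CT4), 27 and 22.9 (CT8), 16.8 and 26.9 (CT12), 36.3 and 36 (CT16), 16.4 and 17.5 (CT20), 26.7 and 18.7 (CT24), 33.9 and 32.9 (CT28) and 17.1 and 17.4 (CT32) CPM in w1118. In per0 eIF2Bgamma measured 38.3 and 35 (CT0), 50.6 and 41.2 (CT4), 31.8 and 27 (CT8), 40.2 and 40.2 (CT12), 57 and 38 (CT16), 32.2 and 35.2 (CT20), 45.5 and 58.3 (CT24), 60.1 and 30.4 (CT28) and 35.1 and 21.4 (CT32) CPM. It differed by 0.55 ± 0.09 log2 (39.9 ± 10.8 against 26.8 ± 7.84 CPM, adjusted p = 2.33e-05), with both libraries above at 7 times. eIF2Balpha was higher by 0.32 ± 0.07 log2, while eIF2Bbeta and eIF2Bepsilon measured 0.16 ± 0.07 and 0.21 ± 0.09 log2 and did not pass (adjusted p = 0.0505 and 0.0635).

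eIF5B went the other way. eIF5B measured 114 and 122 (CT0), 120 and 103 (CT4), 146 and 85 (CT8), 87.1 and 119 (CT12), 176 and 145 (CT16), 92.5 and 110 (CT20), 133 and 92.2 (CT24), 171 and 118 (CT28) and 128 and 94.2 (CT32) CPM in w1118. In per0 eIF5B measured 59.1 and 86 (CT0), 70.1 and 71.6 (CT4), 50.7 and 50.1 (CT8), 83.2 and 86.1 (CT12), 64.2 and 67.4 (CT16), 82.4 and 92.1 (CT20), 85.1 and 101 (CT24), 93.1 and 107 (CT28) and 94.6 and 94.2 (CT32) CPM. The per0 mean was the lower one at all 9 times, and both per0 libraries lay below both w1118 libraries at 7 of them. The means were 79.9 ± 16.7 in per0 and 120 ± 26.9 CPM in w1118, a difference of -0.63 ± 0.09 log2 (adjusted p = 1.7e-06 by edgeR). The difference kept its sign and its call in every alternative run, leaving out each library included, and was -0.71 log2 with testis markers as a covariate.

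Of the cap-binding group, the scaffold eIF4G1 was lower in per0 and its partners were higher. eIF4G1 measured 500 and 535 (CT0), 584 and 438 (CT4), 525 and 320 (CT8), 294 and 391 (CT12), 569 and 533 (CT16), 346 and 330 (CT20), 523 and 306 (CT24), 569 and 429 (CT28) and 380 and 278 (CT32) CPM in w1118. In per0 eIF4G1 measured 249 and 355 (CT0), 287 and 377 (CT4), 203 and 305 (CT8), 308 and 391 (CT12), 302 and 322 (CT16), 279 and 390 (CT20), 343 and 458 (CT24), 407 and 306 (CT28) and 328 and 364 (CT32) CPM. The w1118 values ran from 278 to 584 and the per0 values from 203 to 458 CPM, and both per0 libraries lay below both w1118 libraries at 5 times. The difference was -0.41 ± 0.10 log2 (adjusted p = 0.00111 by edgeR), and without per0 CT4 A the adjusted p was 0.0574. Within per0 the library of letter B held the higher eIF4G1 value at 8 of 9 times, CT28 excepted, and within w1118 letter A did at 7 of 9. Such patterns were not particular to eIF4G1. Within per0 letter B was higher at 7 of 9 times for eIF5B and eIF2Bdelta. Letter A was higher at 7 of 9 for eIF4A, eIF2A, eIF3l and eIF3m, among others. No label says what the letters stand for. The fit with the letter as a covariate gave each genotype its own letter term, so its genotype difference is that between letter A libraries. The eIF4G1 call was kept there, which does not show that the difference holds apart from the letters.

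The helicase eIF4A was higher in per0. eIF4A measured 1010 and 1070 (CT0), 1070 and 920 (CT4), 983 and 805 (CT8), 802 and 1090 (CT12), 1090 and 1210 (CT16), 774 and 882 (CT20), 634 and 520 (CT24), 829 and 787 (CT28) and 763 and 843 (CT32) CPM in w1118. In per0 eIF4A measured 1140 and 1110 (CT0), 1220 and 1110 (CT4), 1010 and 913 (CT8), 1130 and 1290 (CT12), 1320 and 1060 (CT16), 1770 and 1380 (CT20), 1020 and 1260 (CT24), 1230 and 850 (CT28) and 1690 and 1270 (CT32) CPM. The per0 mean was higher at all 9 times and both libraries lay above both w1118 libraries at 7 of them, with a difference of 0.40 ± 0.07 log2 (1210 ± 236 against 894 ± 178 CPM, adjusted p = 3.3e-05 by edgeR). Its cofactor eIF4B was higher by 0.36 ± 0.07 log2 (19.2 ± 4.48 against 14.3 ± 2.27 CPM), and eIF4H1 measured -0.09 ± 0.08 log2 and did not pass. The cap-binding protein eIF4E1 and its repressive relative eIF4EHP differed less. eIF4E1 measured 228 and 240 (CT0), 224 and 207 (CT4), 175 and 143 (CT8), 152 and 164 (CT12), 199 and 207 (CT16), 134 and 136 (CT20), 179 and 175 (CT24), 206 and 205 (CT28) and 157 and 143 (CT32) CPM in w1118. In per0 eIF4E1 measured 203 and 203 (CT0), 256 and 228 (CT4), 165 and 155 (CT8), 189 and 187 (CT12), 249 and 185 (CT16), 203 and 199 (CT20), 232 and 243 (CT24), 276 and 175 (CT28) and 183 and 175 (CT32) CPM. Both per0 libraries lay above both w1118 libraries at 5 of 9 times for each of these genes. eIF4EHP measured 27.2 and 34 (CT0), 29 and 27.3 (CT4), 19 and 19.9 (CT8), 23 and 20.5 (CT12), 29.1 and 29.9 (CT16), 15.7 and 18.2 (CT20), 20.1 and 18.5 (CT24), 29.9 and 25.3 (CT28) and 15.3 and 18.7 (CT32) CPM in w1118. In per0 eIF4EHP measured 32.7 and 36.6 (CT0), 31.9 and 31.2 (CT4), 22.3 and 18.7 (CT8), 24.4 and 23 (CT12), 33 and 24.5 (CT16), 25.5 and 26.8 (CT20), 31.3 and 31.2 (CT24), 28.4 and 17.1 (CT28) and 26.4 and 19.2 (CT32) CPM. The differences were 0.15 ± 0.05 log2 for eIF4E1 (adjusted p = 0.0167) and 0.17 ± 0.07 for eIF4EHP (adjusted p = 0.0343), and neither call was kept with testis markers as a covariate or with scaling by library totals alone.

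In eIF3, every one of the 13 subunits had a positive difference, from 0.07 for eIF3j, a loosely bound subunit, to 0.46 log2 for eIF3m. eIF3m measured 166 and 170 (CT0), 161 and 142 (CT4), 162 and 132 (CT8), 147 and 195 (CT12), 181 and 214 (CT16), 141 and 154 (CT20), 118 and 89.3 (CT24), 139 and 124 (CT28) and 124 and 132 (CT32) CPM in w1118. In per0 eIF3m measured 189 and 187 (CT0), 206 and 176 (CT4), 186 and 184 (CT8), 197 and 219 (CT12), 241 and 166 (CT16), 361 and 254 (CT20), 186 and 196 (CT24), 199 and 137 (CT28) and 313 and 233 (CT32) CPM. eIF3m was higher in per0 at all 9 times, with both libraries above both w1118 libraries at 7 of them (0.46 ± 0.07 log2, adjusted p = 4.57e-06 by edgeR). The subunit eIF3l was also higher at all 9 times. eIF3l measured 102 and 113 (CT0), 102 and 95.6 (CT4), 84.3 and 79.1 (CT8), 86.2 and 87.7 (CT12), 97.1 and 107 (CT16), 75.3 and 80.5 (CT20), 67.8 and 66.1 (CT24), 90.3 and 85.8 (CT28) and 67.8 and 76.6 (CT32) CPM in w1118. In per0 eIF3l measured 118 and 116 (CT0), 131 and 114 (CT4), 108 and 92.6 (CT8), 104 and 112 (CT12), 130 and 96.7 (CT16), 141 and 109 (CT20), 105 and 123 (CT24), 106 and 81.8 (CT28) and 123 and 88 (CT32) CPM. The eIF3l means were 111 ± 15.5 in per0 and 86.9 ± 13.8 CPM in w1118 (0.32 ± 0.05 log2, adjusted p = 1.94e-05). eIF3i and eIF3b were higher by 0.41 ± 0.08 and 0.44 ± 0.09 log2. eIF3j and eIF3k, at 0.07 ± 0.07 and 0.09 ± 0.07 log2, did not pass (adjusted p = 0.413 and 0.3). eIF2A was higher by 0.48 ± 0.08 log2 and eIF2gamma by 0.41 ± 0.09 log2. eIF1, eIF1A, eIF6 and eIF5 measured -0.06 ± 0.06, -0.03 ± 0.05, 0.35 ± 0.17 and -0.24 ± 0.14 log2, and none of them passed.

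**Figure D2:**
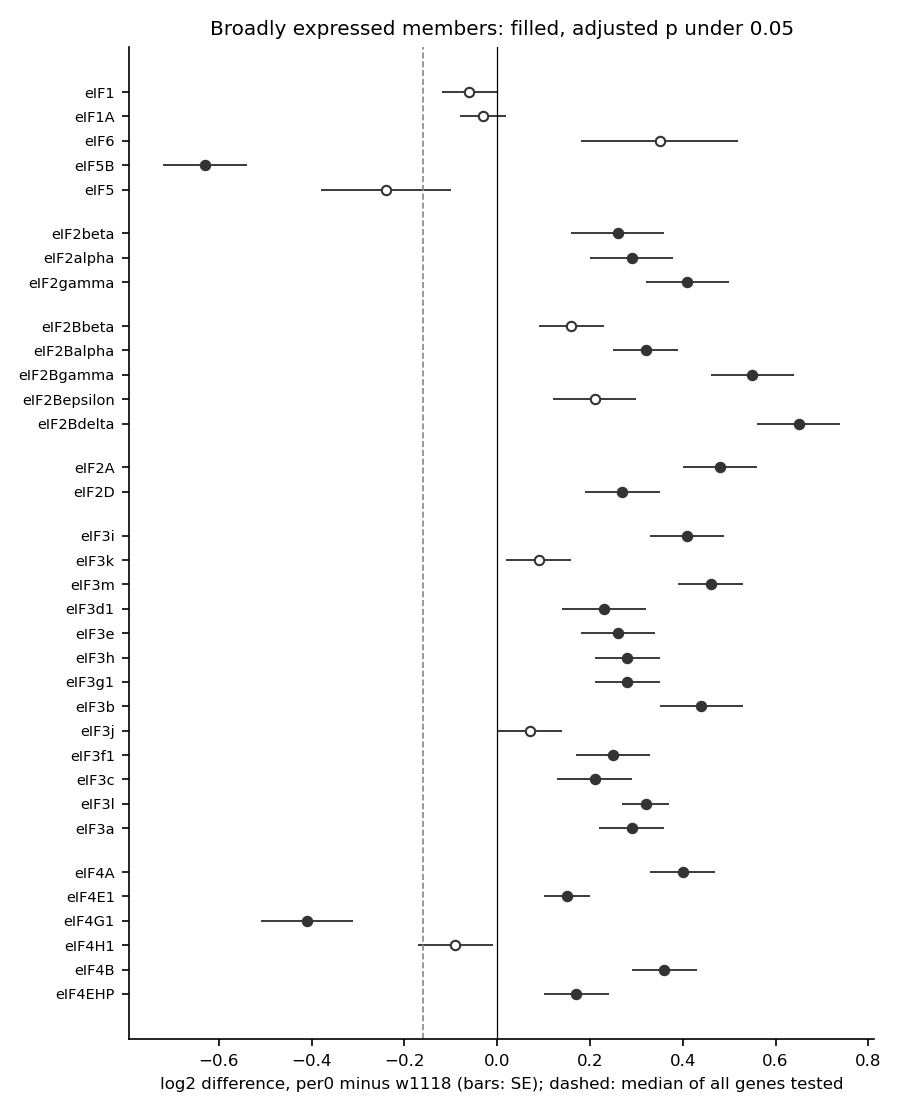
Difference between per0 and w1118 (log2, with SE) for the 34 broadly expressed members, filled where the adjusted p was under 0.05, with the median of all genes as a dashed line. eIF5B (-0.63) and eIF4G1 (-0.41) lie to the left, and the eIF2, eIF2B and eIF3 subunits lie to the right of 0.

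The testis markers moved with these values. The mean deviation of the broad members from their average over all libraries was 0.08 to 0.28 log2 in the 6 w1118 libraries whose testis marker sum was under 20 CPM and -0.63 to 0.02 log2 in the other 12. In per0 it was 0.19 to 0.43 log2 in the 8 libraries under that limit and -0.26 to 0.16 log2 in the other 10, so that the ranges did not overlap in either genotype. The limit of 20 CPM was chosen after the values were seen. Markers of cell types were counted between the genotypes too, against the 42.4% of all genes called. Of 11 hemocyte (blood cell) markers 6 were called, 5 higher and 1 lower in per0 (median 0.51 log2), and 4 of 6 neuron markers were called lower (median -1.20). Of the 13 fat body markers 7 were called, 5 of them lower, from -0.34 log2 for apolpp to -4.81 for Fbp2. Of 30 testis markers 4 were called, all lower, and 1 of 10 muscle markers was called lower. No marker of midgut (14 tested), salivary gland (10) or sex (4) was called. The part of these markers in the result was not tested. With the testis markers as a covariate, 18 members were called between genotypes (16 higher and 2 lower), against 31.1% of genes, among them 14 broad members that were higher, and eIF5B and eIF4G1, which were lower, and the broad median was 0.13 log2 against 0.05 over all genes. When per0 CT28 B was left out, 33 members were called, 25 higher and 8 lower, against 51.7% of genes. Without both w1118 CT0 libraries 30 were called, against 49.9%. Leaving out each library in turn gave 23 to 33, against 37.3 to 51.7% of genes. In every alternative run 14 broad members were called, namely eIF5B, eIF2Bdelta, eIF2Bgamma, eIF2Balpha, eIF2gamma, eIF2A, eIF3a, eIF3b, eIF3h, eIF3i, eIF3l, eIF3m, eIF4A and eIF4B.

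The rest of the translation machinery was counted in the same comparison. Of 27 tested regulators of initiation, 9 were called, 6 higher and 3 lower in per0, against the 42.4% of all genes called in this comparison. Among the lower ones were tyf, which promotes translation of period mRNA (-0.72 ± 0.11 log2, adjusted p = 1.42e-05), and the eIF4E kinase Lk6 (-0.67 ± 0.12). Among those that were higher, pix, the recycling factor, measured 0.38 ± 0.06 log2 (adjusted p = 1.32e-05), RpS6, a ribosomal protein phosphorylated downstream of TOR, 0.47 ± 0.10, and pAbp, the poly(A)-binding protein, 0.34 ± 0.08. Thor, which encodes the repressor 4E-BP, ran from 21.2 to 1200 CPM in w1118 and from 22.8 to 979 CPM in per0 and did not pass (0.57 ± 0.50 log2, adjusted p = 0.353). Of 10 elongation and release factors 6 were called, all higher, eEF1beta (0.52 ± 0.11 log2) among them. Of 91 ribosomal protein genes tested 84 were called (81 higher), with a median of 0.46 log2, and of 18 tRNA synthetases 9 were, all higher, with a median of 0.27 log2.

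On the second circadian day the w1118 libraries held less of several initiation factor transcripts. CT24, CT28 and CT32 were set against CT0, CT4 and CT8, the same clock phases 1 day earlier, with 6 libraries a day. In w1118 10 of 44 members were called, all lower on the second day, against 15.1% of the 11394 genes tested (10.5% lower and 4.57% higher). They were 6 subunits of eIF3 (eIF3b, eIF3d1, eIF3e, eIF3i, eIF3k and eIF3l), eIF2alpha, eIF2gamma, eIF2Balpha and eIF1A. The median over broad members was -0.30 log2 and that over all genes 0.13, and 30 of 34 broad members had a negative sign.

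eIF3i had the smallest p. In w1118 it measured 227 and 227 (CT0), 233 and 205 (CT4), 202 and 163 (CT8), 141 and 110 (CT24), 173 and 177 (CT28) and 143 and 147 (CT32) CPM. The first-day values ran from 163 to 233 and the second-day values from 110 to 177 CPM, an overlap through the CT8 and CT28 libraries, and the change was -0.45 ± 0.10 log2 (210 ± 26.2 to 149 ± 24.5 CPM, SD, n = 6 each, adjusted p = 0.0149 by edgeR). eIF1A, at home in the scanning small subunit, fell by 0.30 ± 0.07 log2. In w1118 it measured 171 and 170 (CT0), 174 and 160 (CT4), 157 and 138 (CT8), 123 and 109 (CT24), 155 and 151 (CT28) and 116 and 111 (CT32) CPM. Its means were 162 ± 13.3 and 128 ± 20.2 CPM (adjusted p = 0.0181). The core subunit eIF3b fell from 270 ± 70.7 to 174 ± 35.4 CPM (-0.56 ± 0.15 log2, adjusted p = 0.0292). In w1118 it measured 306 and 336 (CT0), 341 and 256 (CT4), 212 and 167 (CT8), 172 and 124 (CT24), 227 and 197 (CT28) and 163 and 160 (CT32) CPM. Its CT0 and CT4 values were all above every second-day value, and its CT8 values were not.

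eIF2alpha, the target of the stress kinases, fell from 115 ± 18.4 to 78.4 ± 24.2 CPM (-0.54 ± 0.14 log2, adjusted p = 0.0302). In w1118 it measured 122 and 135 (CT0), 127 and 111 (CT4), 114 and 81.9 (CT8), 89.5 and 57.9 (CT24), 105 and 105 (CT28) and 54 and 58.9 (CT32) CPM. The CT28 libraries, at 105 each, lay within the first-day range of 81.9 to 135 CPM. eIF3e changed by -0.49 ± 0.13 and eIF3d1, the subunit that can contact the cap, by -0.52 ± 0.14 log2. For eIF3e, the w1118 values were 205 and 228 (CT0), 204 and 179 (CT4), 155 and 118 (CT8), 131 and 91.9 (CT24), 166 and 165 (CT28) and 98.1 and 103 (CT32) CPM. For eIF3d1, the w1118 values were 265 and 300 (CT0), 279 and 231 (CT4), 212 and 168 (CT8), 173 and 110 (CT24), 217 and 185 (CT28) and 146 and 150 (CT32) CPM. In both genes the CT28 libraries were the highest of the second day and the days overlapped. Of the cap-binding group no member passed: eIF4A measured -0.38 ± 0.12 (976 ± 101 to 729 ± 127 CPM, adjusted p = 0.0545), eIF4E1 -0.13 ± 0.07, eIF4EHP -0.25 ± 0.11 and eIF4G1 -0.19 ± 0.17 log2.

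The testis marker sums had unlike medians on the days, but they overlapped, at 7.53 to 330 and 10.7 to 1340 CPM. Of 29 testis markers tested 0 were called (smallest adjusted p = 0.177 by edgeR). Of the 6 libraries a day, 3 on the first and 1 on the second had a testis marker sum under 20 CPM, and the median sums were 39.1 and 450 CPM. Markers of hemocytes, the blood cells, were called lower on the second day in 5 of 11 cases (median -0.96 log2), against 15.1% of all genes called. No marker of midgut (14 tested), muscle (10) or sex (4) was called, and 1 of 6 neuron markers was higher. Of 10 salivary gland markers 4 were called higher (median 8.27 log2), and of 13 fat body markers 6 were higher, Fbp1 (10.13) and Lsp2 (4.15 log2) among them, and 2 were lower. The part of these markers in the result was not tested. With the testis markers as a covariate no member was called (broad median -0.15 log2 against -0.03 over all genes, 7.21% of genes called), and none was called without either of the w1118 CT0 libraries or without both. In the fit without both, 2.01% of all genes were called and the broad median was -0.23 log2. Leaving out each library gave 0 to 9 calls, against 8.01 to 14.9% of genes, and the broad median stayed between -0.35 and -0.24 log2. Of the other libraries, leaving out CT4 A, CT8 A, CT24 A, CT28 B, CT32 A or CT32 B brought the count to 2, 2, 3, 5, 3 and 6.

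In per0 2 of 44 members were called between the days, both higher on the second, against 16.6% of the 10552 genes tested (8.97% higher and 7.64% lower). eIF5B rose from 64.6 ± 13.9 to 95.7 ± 7.34 CPM (0.57 ± 0.12 log2, SE, n = 6 each, adjusted p = 0.0144 by edgeR). On the first day it measured 50.1 to 86 CPM and on the second 85.1 to 107 CPM, so that the days overlapped only through CT0 B and CT24 A, at 86 and 85.1 CPM. eIF4B rose from 15.6 ± 3.26 to 22.7 ± 4.36 CPM (0.54 ± 0.15 log2, adjusted p = 0.0371). eIF4B measured 15.6 and 18.8 (CT0), 18.4 and 17.5 (CT4), 12.2 and 11.1 (CT8), 22.4 and 19.8 (CT24), 29.6 and 16.8 (CT28) and 23.1 and 24.6 (CT32) CPM. The second-day libraries were above the whole first-day range of 11.1 to 18.8 CPM except for CT28 B. Of the cap-binding group, eIF4A measured 0.14 ± 0.16, eIF4E1 0.07 ± 0.12, eIF4EHP -0.18 ± 0.14 and eIF4G1 0.30 ± 0.16 log2, and none of them passed.

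Without the mixed CT28 B library 10 members were called in per0, 5 higher and 5 lower, against 23.9% of genes. The higher ones were eIF5B, eIF4B, eIF2A (0.68 log2), eIF1 (0.41) and eIF2Bdelta (0.36), and the lower ones were the scarce genes eIF3f2, eIF4E3, eIF4E5, eIF4E7 and eIF4H2. The testis marker sum was 12.3 to 101 CPM in the first-day per0 libraries and 6.8 to 47.8 CPM in the 5 of the second day other than CT28 B, and its part in these calls was not tested. Without per0 CT0 A, CT8 A or CT8 B no member was called, against 12, 11.3 and 9.52% of genes. Without each of 7 other libraries 1 was, eIF5B, against 9.6 to 14% of genes. The broad median was -0.05 to 0.24 log2 in these fits, below 0 without CT0 A, CT0 B, CT8 A or CT8 B. The scaling bears on the direction: with library totals alone, which shifted all genes by -0.52 log2, the broad median was -0.41 in place of 0.12 log2. In that fit 18 members were called lower, against 30.9% of genes called. Of the 13 fat body markers 8 were called higher on the second day in per0, with a median sum of 47700 CPM on the first day and 420000 CPM on the second. Also called higher were 2 of 11 hemocyte markers, 2 of the 4 tested markers of sex and 1 of 6 neuron markers, and 1 of 11 tested midgut markers was called lower. The part of these markers in the values was not tested. Whether the day change itself differed between genotypes was tested directly, and edgeR called no member (5 at an unadjusted p under 0.05, 5 by DESeq2), against 0.499% of genes (0.423% higher and 0.0762% lower in per0), with eIF3d1 at 0.54 ± 0.19 log2 (adjusted p = 0.275).

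**Figure D3:**
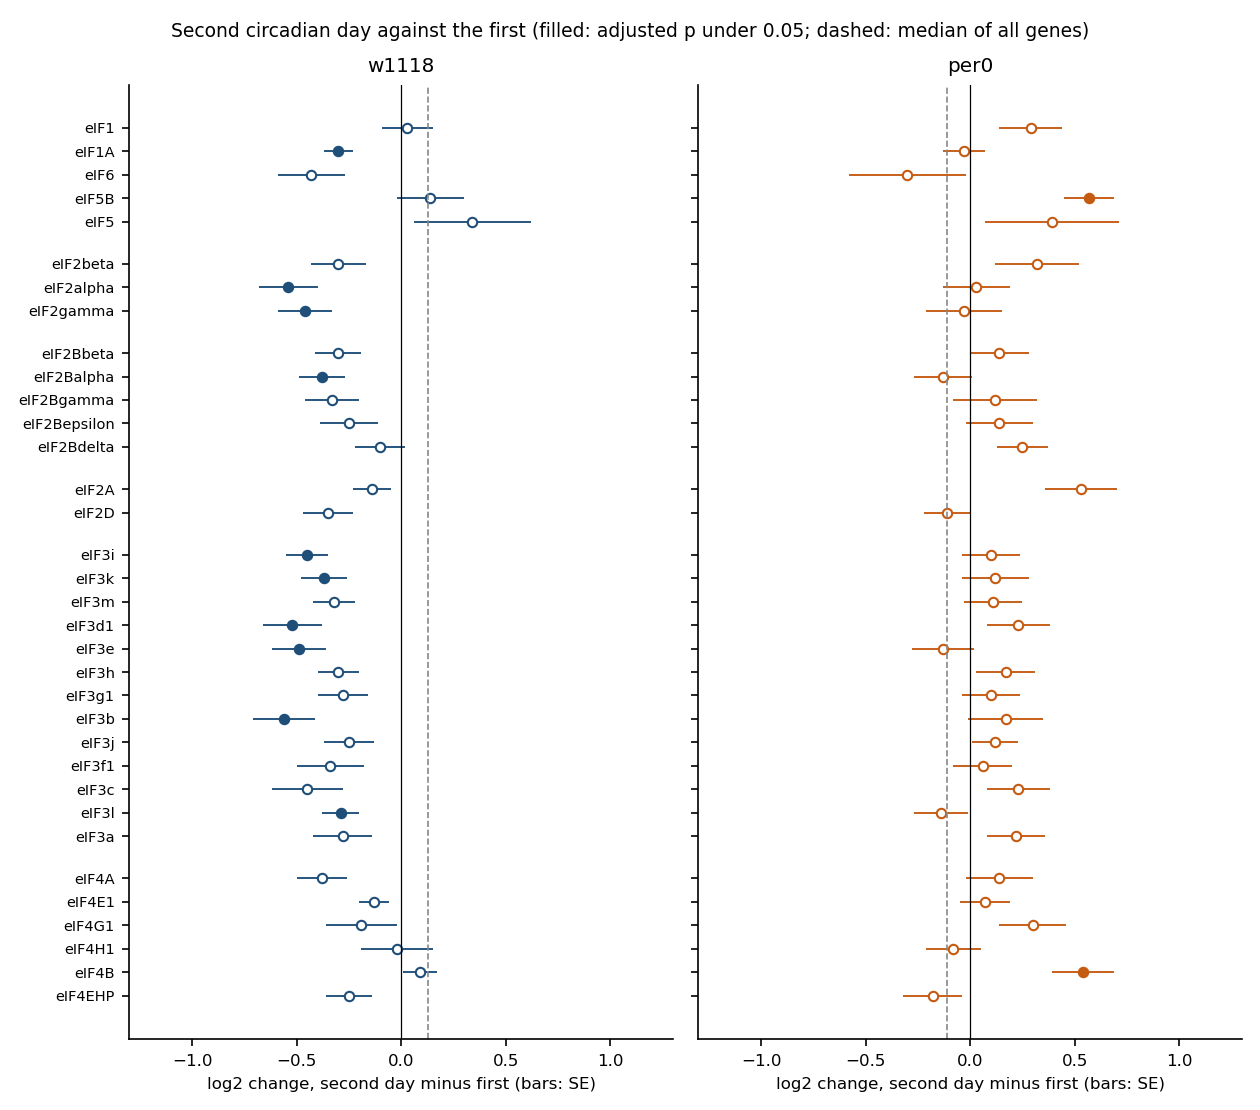
Change from the first to the second circadian day (log2, with SE) of the 34 broadly expressed members in w1118 (left) and per0 (right), filled where the adjusted p was under 0.05. In w1118 30 of 34 points lie below 0 and 10 are filled, and in per0 eIF5B and eIF4B are filled above 0.

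Other translation genes were counted in the same comparison, in which 15.1% of all genes were called in w1118 (10.5% lower and 4.57% higher) and 16.6% in per0 (8.97% higher). In w1118 74 of 91 ribosomal protein genes were lower on the second day (median -0.51 log2), as was 1 of 18 tRNA synthetases. Of 27 regulators 2 were called, both higher, foxo, the insulin-responsive transcription factor (0.57 ± 0.14 log2, adjusted p = 0.0199), and crc, the fly ATF4 (0.36 ± 0.09). In per0 5 regulators were higher on the second day: NAT1, an eIF4G relative that lacks the eIF4E-binding region (0.83 ± 0.10 log2, adjusted p = 0.00111), foxo (1.22 ± 0.19), rictor, RagC-D and Gcn2. No ribosomal protein gene was called there. Thor measured 1.02 ± 0.32 in w1118 and 0.82 ± 0.80 log2 in per0 and did not pass in either (adjusted p = 0.0644 and 0.545).

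The subjective night (CT12, CT16 and CT20) was set against the mean of the 6 flanking day times. In w1118 2 of 44 members were called, both lower at night, against 4.76% of the 11650 genes tested (2.21% lower and 2.54% higher). eIF4E1 measured 134 to 207 CPM in the 6 night libraries and 143 to 240 in the 12 day libraries, with the CT16 pair high and the CT20 pair lowest (-0.32 ± 0.07 log2, adjusted p = 0.0362 by edgeR). eIF6 was also highest at CT16 and lowest at CT20 among the night times. In w1118 eIF6 measured 33.4 and 46.4 (CT0), 29.4 and 37.2 (CT4), 18.8 and 19.2 (CT8), 19.7 and 19.5 (CT12), 29.9 and 22.6 (CT16), 13.6 and 14.8 (CT20), 19 and 17.7 (CT24), 29.5 and 28.1 (CT28) and 17.5 and 17.3 (CT32) CPM. Its contrast was -0.47 ± 0.12 log2 (20 ± 5.89 at night against 26.1 ± 9.47 CPM by day, adjusted p = 0.0475). In both genes the night and day ranges overlapped. Of the other cap-binding members, eIF4A measured 0.09 ± 0.11, eIF4G1 -0.27 ± 0.17 and eIF4EHP -0.18 ± 0.09 log2, and none of them passed.

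These calls depended on single libraries. Leaving out each of 18 libraries gave 0 to 8 members, against 1.88 to 8.9% of genes, with no call in 11 of the 18 fits. Without CT24 B there were 8 calls, all lower, against 8.9% of genes. With library totals alone, which shifted all genes by 0.13 log2, neither call was kept. In that fit 2 other members, eIF2A and eIF3m, named here after their values were seen, were called higher, against 7.41% of genes called. Without both w1118 CT0 libraries neither call was kept either (eIF4E1 -0.16 log2, adjusted p = 0.0671, and eIF6 -0.24, adjusted p = 0.149, by edgeR), and eIF3m was called higher and eIF4B lower, against 7.34% of genes, these 2 being named after their values were seen. In that fit the broad median was 0.01 in place of -0.16 log2, with 18 of 34 broad members above 0. With the column letter as a covariate no member was called. In per0 no member was called by edgeR (1 at an unadjusted p under 0.05, 2 by DESeq2), against 0.156% of genes, with eIF2Bdelta at 0.30 ± 0.09 log2 (adjusted p = 0.227). eIF4E1 measured -0.01 ± 0.10 and eIF6 0.03 ± 0.30 log2 in per0.

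At night 4.76% of all genes were called in w1118, 2.54% higher. Thor made the largest change among the regulators, 2.92 ± 0.15 log2 (628 ± 363 against 150 ± 235 CPM, adjusted p = 5.38e-06 by edgeR). With Thor, 5 of 27 regulators were higher at night, the others being the TOR-responsive factors REPTOR-BP (1.33 ± 0.14) and REPTOR (0.51 ± 0.11), the kinase Lk6 (0.67 ± 0.15) and Paip2, which displaces the poly(A)-binding protein (1.10 ± 0.27 log2), and eEF1delta was lower (-0.69 ± 0.13). Thor acts on eIF4E, so both were set side by side per kb. The ratio of Thor to eIF4E1 was 0.281 to 2.64 in the w1118 libraries of CT0 to CT8, 6.30 to 17.2 at CT12 to CT20 and 0.38 to 16.3 at CT24 to CT32. The second-day spread came from CT32, at 8.62 and 16.3, while CT24 and CT28 lay between 0.38 and 1.06. In per0 the ratio was 1.54 to 2.82, 1.11 to 14.3 and 0.245 to 14.8 in the same windows, the highest values at CT20 A, CT32 B and CT28 B (14.3, 14.8 and 9.67). Thor in per0 did not pass at night (0.11 ± 0.54 log2).

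Changes of any shape over the 9 times were called for 3 of 44 members in w1118, against 12.2% of genes. These were eIF6, eIF4EHP and eIF4E1. Their time means spanned 1.44, 0.83 and 0.79 log2 (adjusted p = 0.0186, 0.0481 and 0.0489 by edgeR). All 3 had their 4 highest time means at CT0, CT4, CT16 and CT28, and these are also the times of the 6 w1118 libraries with a testis marker sum under 20 CPM. At CT4 and CT28 only letter A lay under that limit, and letter B had sums of 262 and 378 CPM. At CT4 letters A and B measured 29.4 and 37.2 (eIF6), 224 and 207 (eIF4E1) and 29 and 27.3 CPM (eIF4EHP). At CT28 they measured 29.5 and 28.1, 206 and 205, and 29.9 and 25.3 CPM. With testis markers as a covariate no member was called, and the eIF6 call was kept without each library in turn. The count ran from 1 to 21 when single libraries were left out, being 21 without CT12 A, 12 without CT24 B, 10 without CT20 A, 9 without CT12 B or CT24 A, 8 without CT0 B and 1 or 2 without the rest. The shares of all genes called in these fits are not given here. Without both CT0 libraries the count was 7, against 12.5% of genes. In per0 no member was called (7 at an unadjusted p under 0.05, 13 by DESeq2), against 9.71% of genes. eIF5B came closest (0.98 log2, adjusted p = 0.0524). eIF6 in per0 ran from 8.68 to 67.8 CPM, a 7.81-fold span, and its duplicates at CT16 measured 67.8 and 18.8 CPM. Leaving out single libraries gave 0 to 4 in per0. Without the mixed CT28 B library 2 were called, eIF3f2 and eIF4B, against 8.81% of genes. Over time in w1118, against the same 12.2% of genes, 4 of 27 regulators were called, Thor, REPTOR-BP, Paip2 and REPTOR. The time means of Thor spanned 5.52 log2 (adjusted p = 0.000143 by edgeR). Of 10 elongation and release factors 1 was called, eEF1delta. In per0, against 9.71% of genes, 3 regulators were called, foxo, REPTOR-BP and crc, and Thor was not (adjusted p = 0.291).

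**Figure D4:**
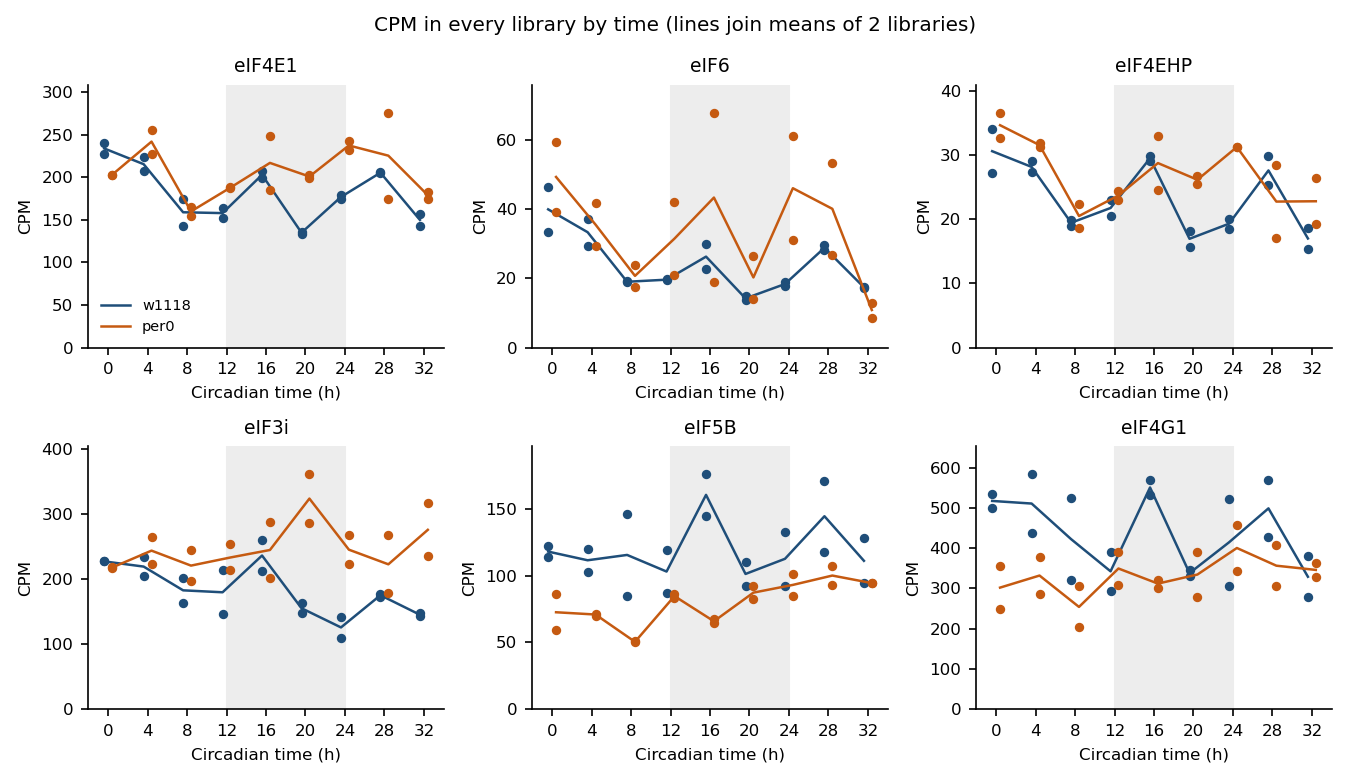
CPM of eIF4E1, eIF6, eIF4EHP, eIF3i, eIF5B and eIF4G1 in every library (points) against circadian time in h, with lines through the mean of 2 libraries and the subjective night shaded. In w1118 the first 3 genes are high at CT0, CT4, CT16 and CT28, and the mean of eIF5B in per0 lies below that in w1118 at all 9 times.

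The study is about rhythms of about a day and shorter, so 24 h and 12 h cosine pairs were fitted together. edgeR called no member for 24 h in w1118 (3 at an unadjusted p under 0.05, 3 by DESeq2), against 0.618% of genes, and none in per0 (3 unadjusted, 0 by DESeq2), where 0% of genes were called. For 12 h it called none in w1118 (9 unadjusted, 2 by DESeq2) or in per0 (5 unadjusted, 1 by DESeq2), and 0% of genes in either. Without both w1118 CT0 libraries 8 members passed for 12 h in w1118, against 3.89% of genes. The member with the smallest 12 h p in w1118 was eIF4EHP, with a fitted change from peak to trough of 0.64 ± 0.15 log2 and peaks at CT2.81 and 12 h later (adjusted p = 0.446). For eIF4E1 the 12 h change was 0.42 ± 0.12 in w1118 and 0.42 ± 0.14 log2 in per0, with first peaks at CT2.60 and CT3.01 (adjusted p = 0.473 and 0.46). Of 27 regulators 2 were called for 24 h in w1118, Thor and REPTOR-BP (adjusted p = 0.00105 and 0.00118 by edgeR). No regulator was called for 24 h in per0, where Thor had an adjusted p of 0.918, or for 12 h in either genotype. A test of any difference in time course between genotypes called no member (13 unadjusted, 19 by DESeq2), against 0.374% of genes, with eIF2Bdelta nearest (adjusted p = 0.1).

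The levels of the testis paralogs were set beside the testis markers. eIF4E3 and eIF4G2 encode a cap-binding protein and a scaffold that serve male germ cells in flies. In the 6 w1118 libraries with a testis marker sum under 20 CPM (both CT0, CT4 A, both CT16 and CT28 A), eIF4E3 measured 0 to 0.229 CPM. In the other 12, with sums of 62.4 to 1340 CPM, it measured 5.08 to 80.9 CPM with a median of 33.7. The same split held for eIF3d2 (0 against 0.582 to 20.3 CPM), eIF3f2 (at most 0.204 against 1.44 to 18.2), eIF3g2 (at most 0.767 against 1.38 to 13.8), eIF4E5 (at most 0.102 against 0.376 to 25.8) and eIF4E7 (at most 0.0602 against 0.439 to 16.6). These genes encode second copies of eIF3 subunits and of eIF4E. For eIF4E6 the ranges met, at up to 0.153 and from 0.0627 to 4.09 CPM. In per0 the split was clean for eIF4E3 alone among the 8 paralogs, and the ranges under and over the limit met for the other 7. There eIF3f2 measured up to 1.04 CPM in the 8 libraries under the limit and 0.131 to 14.2 in the 10 over it. The per0 values over the limit began at 0 for eIF3d2, eIF3g2, eIF4E5, eIF4E6 and eIF4E7, and reached 6.5, 4.47, 8.1, 3.12 and 6.98 CPM. Under the limit eIF3d2 was at 0 in all 8 libraries and the other 4 measured at most 0.4 CPM.

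eIF4G2 differed in that it was present in every library. It measured 8.13 to 14.2 CPM in those 6 w1118 libraries and 16 to 97.5 CPM in the other 12. In per0 it measured 4.47 to 10.9 CPM in the 8 libraries under the limit and 9.21 to 53.2 CPM in the other 10. It is thus the only one of the 8 listed paralogs with a level above 1 CPM in all 36 libraries. eIF4E4, another eIF4E gene, and eIF4H2, a paralog of the helicase cofactor, followed the testis genes, at up to 0.0602 and 0 CPM in the 6 w1118 libraries and at 0.313 to 30.9 and 1.13 to 31.5 CPM in the other 12. In per0 they measured up to 0.088 and 0 CPM under the limit, and 0 to 3.51 and 0 to 8.19 CPM over it.

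In per0 the mixed CT28 B library had the highest testis sum, 493 CPM, and the highest value of each scarce gene except eIF3g2, which measured 4.42 CPM there and 4.47 in CT12 A. There eIF4E3 measured 37.9, eIF3f2 14.2, eIF4H2 8.19 and eIF4E5 8.1 CPM. In the other 9 libraries over the limit, eIF4E3 measured 2.43 to 18.3 CPM, and in the 8 under it at most 1.18 CPM. Between genotypes 3 of the 10 scarce genes were called, against 42.4% of all genes, all lower in per0: eIF3g2 (-2.48 ± 0.76 log2, adjusted p = 0.011), eIF4G2 (-1.28 ± 0.39, adjusted p = 0.0113) and eIF4E4 (-3.70 ± 1.39, adjusted p = 0.0343, by edgeR). With the testis markers as a covariate none of these calls was kept, at -0.83, -0.32 and -0.78 log2. With the column letter as a covariate, where the difference is that between letter A libraries, none was kept either (adjusted p = 0.095, 0.0544 and 0.0955). Without the mixed per0 CT28 B library 6 of the 10 were called lower, against 51.7% of genes, with eIF3d2 (-3.69 log2, adjusted p = 0.036), eIF4E5 (-3.95, 0.0336) and eIF4H2 (-4.79, 0.0138) added. Without both w1118 CT0 libraries 5 were called lower, against 49.9% of genes, the 3 above with eIF4E5 and eIF4H2. In the fit with the testis covariate eIF4E3 and eIF3f2 were called higher in per0, at 1.71 and 1.29 log2, where the fit without the covariate gave -1.51 and -1.35 log2 and no call. In the fit with all libraries and no covariate the 7 scarce genes with no call had differences of -3.62 to -1.35 log2 with SEs of 1.07 to 1.64. Fitted changes of genes at 0 in many libraries depend on the prior count and are no bounds.

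The ratios of the paralogs to each other, taken per kb of exon, varied between libraries. Over the 12 w1118 libraries with at least 50 counts of eIF4E3, the ratio of eIF3d2 to eIF4E3 ran from 0.00803 (CT4 B) to 0.161 (CT32 B) and that of eIF4H2 from 0.0531 to 0.299. The ratio of eIF3f2 to eIF4E3 spanned less there, 0.164 to 0.307. In 9 per0 libraries it ran from 0.171 to 0.751. The ratios of eIF3d2 and eIF4H2 in per0 are left out of this reading, since few counts lie behind their low ends.

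The scarce genes were also set per kb against the broad gene of the same kind, and the highest share in any library is given for each pair. In w1118 CT24 B, the library with the highest testis sum, eIF4E3 measured 99.6% of eIF4E1 per kb and eIF4H2 160% of eIF4H1. These shares depend on the exon unions, 1040 against 2235 bases and 1906 against 4430. In CPM both paralogs lay below, eIF4E3 at 80.9 against 175 and eIF4H2 at 31.5 against 45.6. In the same library eIF3f2, eIF3g2 and eIF3d2 measured 39.6, 24.6 and 16.7% of eIF3f1, eIF3g1 and eIF3d1 per kb. eIF4G2 was highest in CT12 A, at 23.9% of eIF4G1 per kb. High shares were not confined to CT24 B. In w1118 CT12 A eIF4H2 measured 17.5 against 40.4 CPM for eIF4H1, and in w1118 CT20 A eIF4E3 measured 54.1 against 134 CPM for eIF4E1. Over the libraries, the median share of eIF4E3 against eIF4E1 per kb was 25.1% in w1118 and 3.3% in per0.

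**Figure D5:**
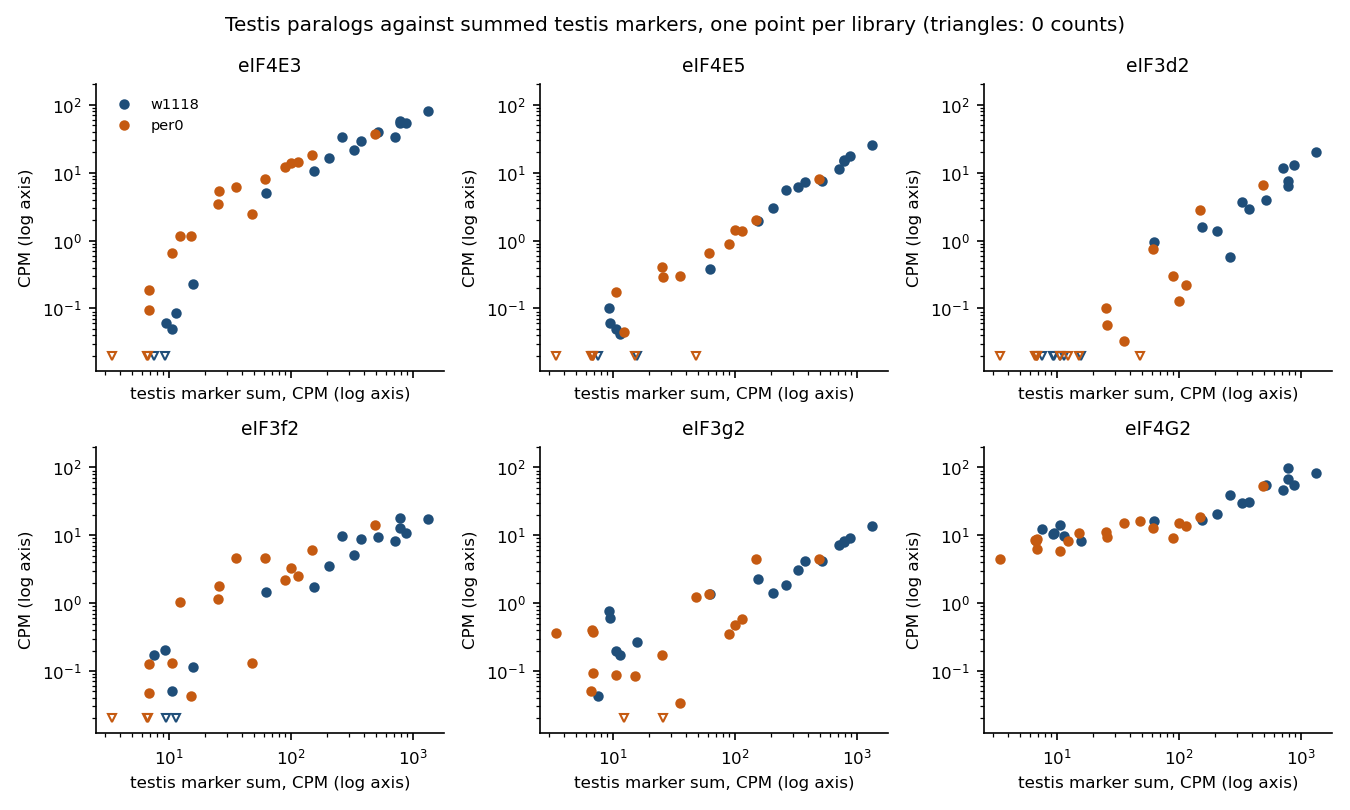
CPM of 6 testis paralogs against the summed CPM of 30 testis markers, both on log axes, with 1 point for each library and triangles for libraries at 0 counts. In w1118 all 6 genes are higher in every library with a testis sum over 20 CPM than in those under it, and eIF4G2 alone stays above 4 CPM in libraries with sums under 20 CPM.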

How the data were processed

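Libraries were made from fat body RNA with a SMART-Seq v4 kit, per the labels' protocols. This chemistry marks neither strand nor single molecules, so reads of overlapping or antisense genes cannot be told apart and floors cover counting error only. The values used are the deposited raw counts per gene, in 1 table for each genotype. Tools named in the submitters' processing notes are STAR 2.7.9a, featureCounts, edgeR and DESeq2 1.30.1, without role or order. The genome build is not given in the sources used here, so no coordinates are printed. Exon lengths, chromosome arms and overlaps came from Ensembl release 115. The deposited normalized tables were not used here.

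Total counts were 16513757 to 28423768 per library and every count row names a gene. Columns carry letters A and B that match no replicate number in the labels, so they name libraries and pair none. Genes were filtered with filterByExpr, scaled by TMM and tested with edgeR 4.0.16 (quasi-likelihood, Benjamini-Hochberg adjustment over all genes tested, threshold 0.05) in R 4.3.3 with limma 3.58.1. CPM used TMM factors from all 36 libraries and all genes, whereas each test computed its own on its libraries and filtered genes. CPM means and fitted log2 changes printed side by side can therefore differ. The genotype comparison was matched by time. The testis covariate was the mean log2(CPM + 0.5) of the testis markers. Alternatives were DESeq2 1.42.0, RLE scaling, no low-count filter, the testis covariate, leaving out libraries, library totals and the column letter. The fitting scripts were tested on simulated data.

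The members, marker lists and pathway lists were chosen with earlier results of these data known. Full values are given for up to 6 called members with the smallest p in each comparison, at most 4 of them repeated from another one, and always for eIF4E1, eIF4EHP, eIF4G1 and eIF4A. Every testis paralog is described, and of other translation genes up to 6 called ones and Thor are named.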

Additional observations from a re-analysis of the deposited data

How the results depend on the processing

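Counts of called members over the 9 times in w1118 (3) became 11 with RLE scaling, 1 without the low-count filter and 31 with DESeq2. They became 0 with the testis covariate, 7 without both CT0 libraries, 25 with library totals alone and 1 with the column letter as a covariate. DESeq2 called 5456 genes there, where edgeR called 1426, and 12.5% of genes were called without both CT0 libraries. For the other settings over the 9 times the share of all genes is not given here. In per0 the count (0) became 13 with DESeq2, 4 with the testis covariate, 10 with library totals and 1 with the letter. DESeq2 called 4099 genes in per0, where edgeR called 1061. The second-day count in w1118 (10) became 5 with RLE scaling (14.4% of genes), 2 without the filter (8.16%) and 0 with the testis covariate (7.21%). It became 0 without both CT0 libraries (2.01%) and 23 with library totals (19.3%). That in per0 (2) became 1 without the filter (9.39%), 6 with DESeq2 (27.1%), 6 with the testis covariate (26%) and 18 with library totals (30.9%). The night count in w1118 (2) became 0 without the filter (2.64% of genes), 9 with DESeq2 (14%), 1 with the testis covariate (5.37%) and 0 with the letter (3.65%). It was 2 without both CT0 libraries (7.34%) but of other members, and that in per0 (0) became 2 with DESeq2 (4.76%). DESeq2 also called 3 members for 24 h and 2 for 12 h in w1118 and 1 for 12 h in per0. It called 5 for the difference in day change and 19 for that in time course, and edgeR called 0 in each. Of all genes DESeq2 called 431, 205, 300, 547 and 3598 in these comparisons, where edgeR called 72, 0, 0, 59 and 45. By edgeR 8 members were called for 12 h in w1118 without both CT0 libraries, against 3.89% of genes. The genotype count (28) became 18 with the testis covariate (31.1% of genes). It was 22 to 30 in the 6 other alternatives, with 28.2 to 50.9% of genes called. The cause of these differences was not tested. Library totals, the column letter and the fit without per0 CT28 B were chosen after seeing the data. The letter was not fitted with the 24 h and 12 h pairs. Where both genotypes were fitted, each had its own letter term, so the genotype comparison with the letter sets letter A libraries against each other.

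Leaving out each library in turn gave 1 to 21 members over time in w1118 and 0 to 4 in per0, 0 to 9 for the second day in w1118 and 0 to 10 in per0, 0 to 8 at night in w1118 and 0 to 0 in per0, and 23 to 33 between genotypes. It gave 0 to 3 for a difference in time course, being 3 without w1118 CT24 A and 1 without w1118 CT8 B, and 0 to 0 for the difference in day change and for the 24 h and 12 h pairs in both genotypes. Shares of all genes called in such fits were 8.01 to 14.9% for the second day in w1118 and 9.52 to 23.9% in per0. They were 1.88 to 8.9% at night in w1118 and 37.3 to 51.7% between genotypes. Where 1 library of a time was left out, the other was assumed to vary like the rest. No paired analysis was possible because the columns carry letters and not the replicate numbers of the labels. The members called in the fits with all libraries, TMM scaling and no covariate kept their sign in each alternative run. Depth limits the scarce paralogs most, since 3 counts correspond to up to 0.220 CPM.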
